A study of Mus musculus with 16 samples.

Results

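Making a ribosome starts in the nucleolus, where RNA polymerase I copies the ribosomal DNA into a long precursor RNA. Small nucleolar ribonucleoproteins (snoRNPs) then guide its chemical modification, and a large set of assembly factors folds, cuts and packs the precursor into the small (40S) and large (60S) subunits. The process uses much of a growing cell's energy and is known to respond to nutrients, growth factors and oxygen. The 42 genes described here, encoding RNA polymerase I and its factors, snoRNP proteins and assembly factors, were taken from a fixed list of gene symbols. Of the 42, 40 had a probe set named on the array and 2, Nop56 and Gnl3, had none named, so 40 genes among the 19505 named on the array were measured. Each gene is represented by the probe set with its highest mean over all 16 arrays.

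The cells were BU.MPT, a mouse proximal tubular line that carries a temperature-sensitive, interferon-inducible viral T antigen. All 16 samples were grown to near confluence at 39 °C without interferon gamma, and the results are those of this cell line alone. Control cells were kept in 21% oxygen, in medium with glucose (4.5 g/L) and 10% serum. Cells of the hypoxia/reperfusion group, H/R, spent 3 h at about 1% oxygen in medium without glucose and serum, followed by 1 h back in normal culture with both restored. A second pair of groups, control+B12 and H/R+B12, was handled alike with 0.3 µM cyanocobalamin, a form of vitamin B12. Each of the 4 groups has 4 arrays. Oxygen, glucose and serum changed together in H/R and cannot be told apart. The arrays read 700 pg of RNA per sample from whole cultures, so signals are relative to total RNA and do not show cell number. A change in some of the cells and a change in all of them cannot be told apart either. The labels do not say whether replicates came from separate cultures, so the p-values measure the spread between these samples only.

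Values are log2 signal, and each change is a difference of group means on that scale with its standard error (SE). The array medians over 22206 probe sets lay between 5.21 and 5.37. Medians of the negative control features ran from 5.72 to 6.23, and the mean of every measured member lay above 6.23 in every group. The 95th percentiles of these features were higher, from 10.06 to 10.56. Some members had means over all arrays below that range, among them Rrp9 (7.18), Bop1 (7.26), Rrp1b (7.45) and Polr1b (8.56). Others were Rrp12 (8.89), Noc2l (8.94), Ltv1 (9.28) and Bysl (9.86), which like Rrp1b were called higher in at least 1 H/R comparison below. Rrs1 and Tsr1, with the highest changes without B12, had control means of 9.70 and 9.42, also below that range. A mean above 6.23 thus does not set a member clear of all negative controls. Of 13 measured proximal tubule markers, 2 (Aqp1 and Mme) had a mean above 6.23, and the defining transporters and receptors Slc34a1, Slc5a2, Lrp2 and Cubn were below it. Among 6 general tubule epithelium markers, 4 were above it (Pax8, Cdh16, Krt18 and Krt8). All 5 fibroblast, 5 endothelial and 5 leukocyte markers and all 6 markers of the distal nephron were below it, as was the podocyte marker Wt1, while Nphs1 and Podxl were above. Over the 40 genes, the array control 1 had a mean of 11.18, against 10.84 to 10.91 in the other control arrays.

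After H/R, RNA of most of the assembly factors among the 40 genes rose. Of the 5 listed genes of RNA polymerase I and its factors 0 passed the test, which for so few genes is near the share of all probe sets (17.6%). Of the 40 genes, 21 rose and 1, Nop10, fell against control (limma, Benjamini-Hochberg adjusted p under 0.05 over all probe sets). Among all probe sets 17.6% passed, with 8.11% higher (1801) and 9.54% lower (2118), a split that became 2133 higher and 1646 lower when arrays were centred on their medians. At an unadjusted p under 0.05 there were 27 of the 40, beside 27.6% of all probe sets. The median log2 change of the 40 was 0.50, beside -0.02 over all probe sets. In 19 of the 40 all 4 H/R arrays lay above all 4 control arrays, as they did in 9.88% of all probe sets, and in 1 they lay below (11%). With B12 in both arms, 25 rose and 1 fell, with a median of 0.64 (-0.04 over all probe sets), where 18.7% of all probe sets passed, 9.04% higher (2007) and 9.61% lower (2135), or 2417 and 1605 with centred arrays. At an unadjusted p under 0.05 there were 28 of the 40, beside 29.1%. There the groups lay apart upwards in 26 of the 40, and in 10.3% of all probe sets, and downwards in 1 (11.2%). The same 21 genes rose in both comparisons, as did 6.55% of all probe sets, and Nop10 fell in both, as did 6.69%. The members were chosen with earlier results of these data known, so these counts describe the list and are not independent support for its direction.

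**Figure D1:**
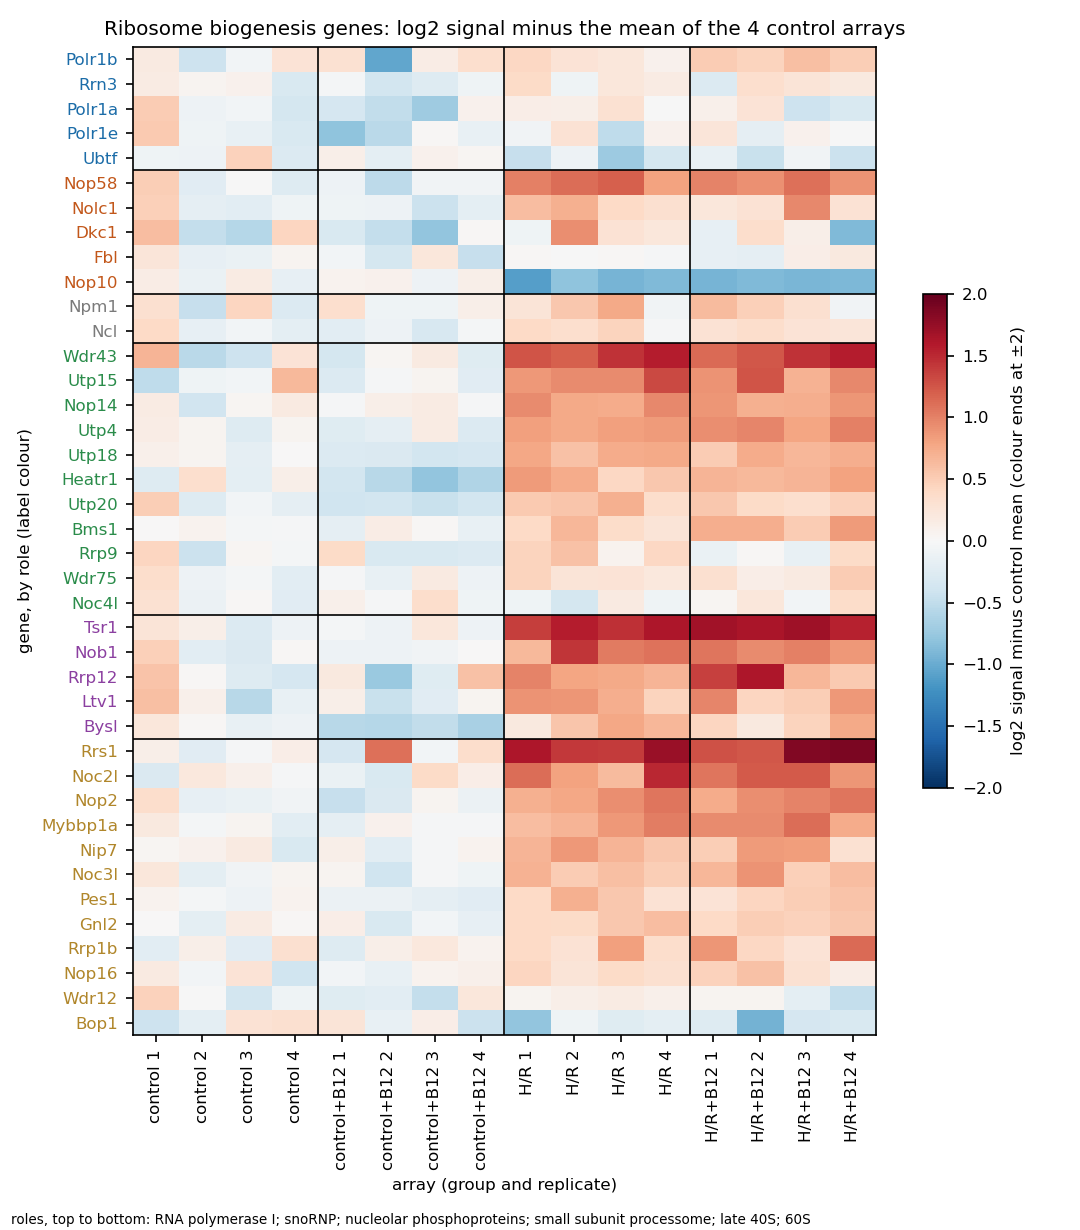
Log2 signal of the 40 measured genes (rows, by role) on each of the 16 arrays (columns), as the difference from the mean of the 4 control arrays, with colour ending at ±2. The H/R and H/R+B12 columns are red for most assembly factors, near white for the RNA polymerase I genes and blue for Nop10.

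The start regions of the genes were searched for a single set motif, and no other was looked for. The sequence tables of RefSeq (build GRCm38.p6) held the stretch from 250 bases before to 50 bases after the start for 36 of the 42 genes, some with several starts. The motif was the E-box CACGTG, the sequence that the growth regulator Myc and its partner Max are known to bind, which reads the same on both strands. It was found in 10 of the 36 genes (27.8%), against 8.09% of all 27025 genes in the table, 8.91% of protein-coding genes and 12.3% of the 7058 genes with a signal at or above that of the dimmest member. Median GC content was 59.7% in the members' start regions and 61.3% in those of the 7058 genes. Of the 19 members with a start region that rose after H/R without B12, 9 held the E-box, and of the 15 other measured members 1, Rrn3, did. The share was 14.3% over all genes that rose in that comparison and 11.5% over all that fell. A match describes letters only and cannot tell which factor, Myc or another, would bind there. No binding was measured here. The stretches around each match are shown with the E-box in capitals, 5′ to 3′ on the gene's strand, in order of the gene's log2 change after H/R, so that their position near the start can be compared. They are cut at the end of the region in Mybbp1a and Utp20. Of the genes with large changes, Tsr1 (1.51) and Wdr43 (1.36) are shown. Rrs1 (1.54), Nob1 (1.05), Nop58 (1.03), Utp15 (1.02) and Noc2l (1.02) are not among the genes with a match. Only 19 of the 21 genes that rose had a start region to search, so a missing match need not mean that the E-box is absent.
Tsr1: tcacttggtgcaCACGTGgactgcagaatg
Wdr43: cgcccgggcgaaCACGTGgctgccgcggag
Nop2: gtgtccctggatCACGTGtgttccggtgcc
Utp4: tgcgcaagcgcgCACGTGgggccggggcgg
Mybbp1a: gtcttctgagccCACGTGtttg
Ltv1: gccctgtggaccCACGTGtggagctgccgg
Utp18: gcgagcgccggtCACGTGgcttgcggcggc
Utp20: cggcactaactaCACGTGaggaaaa
Pes1: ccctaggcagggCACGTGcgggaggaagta
Rrn3, near the start: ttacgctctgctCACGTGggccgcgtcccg
Rrn3, farther upstream: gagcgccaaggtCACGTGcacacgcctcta

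The stretches lie at chr11:74898092-74898121 (+) for Tsr1, chr17:71616220-71616249 (+) for Wdr43, chr6:125131811-125131840 (+) for Nop2 and chr8:106893643-106893672 (+) for Utp4. Those of Mybbp1a, Ltv1 and Utp18 lie at chr11:72441355-72441376 (+), chr10:13193092-13193121 (-) and chr11:93885769-93885798 (-). For Utp20 and Pes1 they are chr10:88826765-88826789 (-) and chr11:3963965-3963994 (+), and for Rrn3 chr16:13780639-13780668 and chr16:13780472-13780501 (both +). In 7 of the 10 genes the E-box began after the start, between base 3 (Pes1) and base 41 (Mybbp1a) counted from 1 at the start. It began 60 bases before the start in Nop2, 20 in Utp18, and 48 and 215 in Rrn3. The whole 250 bases upstream of the start are given for these 3 genes, the ones with an E-box there, in the same order: chr6:125131633-125131882 (+), chr11:93885767-93886016 (-) and chr16:13780449-13780698 (+).
Nop2: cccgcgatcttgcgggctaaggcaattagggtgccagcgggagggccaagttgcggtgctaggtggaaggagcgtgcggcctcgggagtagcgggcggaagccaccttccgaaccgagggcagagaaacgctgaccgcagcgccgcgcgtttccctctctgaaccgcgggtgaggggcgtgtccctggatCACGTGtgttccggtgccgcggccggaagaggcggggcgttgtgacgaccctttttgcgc
Utp18: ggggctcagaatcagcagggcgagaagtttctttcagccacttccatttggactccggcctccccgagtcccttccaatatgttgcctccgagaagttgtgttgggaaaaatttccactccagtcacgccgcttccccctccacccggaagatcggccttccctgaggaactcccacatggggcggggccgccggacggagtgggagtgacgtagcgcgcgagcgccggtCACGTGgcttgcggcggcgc
Rrn3: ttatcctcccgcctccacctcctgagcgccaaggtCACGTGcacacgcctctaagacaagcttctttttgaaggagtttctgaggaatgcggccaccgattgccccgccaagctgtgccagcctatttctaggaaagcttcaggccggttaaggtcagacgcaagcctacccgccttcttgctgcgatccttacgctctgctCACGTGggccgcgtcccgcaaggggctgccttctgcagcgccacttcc

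None of the 5 listed genes of RNA polymerase I and its factors passed the test in either H/R comparison. They were the catalytic subunit Polr1a, the second-largest subunit Polr1b, the subunit Polr1e, the initiation factor Rrn3, which brings the polymerase to its promoter, and Ubtf, the architectural factor of active ribosomal DNA. Of the 5, 1 had an unadjusted p under 0.05 in each comparison (Ubtf without B12 and Polr1b with B12), beside 27.6% and 29.1% of all probe sets. Over all probe sets 17.6% and 18.7% passed the test itself, so with 5 genes both counts are near the shares of all probe sets. Genes are ranked within a role by their change without B12. Polr1b, with the highest change of the group, read 8.57, 7.98, 8.34 and 8.66 in control and 8.80, 8.66, 8.61 and 8.48 in H/R. It read 8.69, 7.36, 8.54 and 8.72 in control+B12 and 8.90, 8.84, 8.99 and 8.88 in H/R+B12. The groups overlapped without B12 and lay apart with it, and the array control+B12 2 was far below its group. The changes were 0.25 ± 0.24 (SE, n = 4 against 4, adjusted p = 0.59) and 0.57 ± 0.24 (adjusted p = 0.125). Without the array control+B12 2 the latter was 0.25 (adjusted p = 0.36), and without control 2 the former was 0.11.

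Ubtf, with the lowest change, read 12.02, 12.01, 12.57 and 11.84 in control and 11.64, 12.01, 11.39 and 11.75 in H/R. In control+B12 it was at 12.23, 11.91, 12.20 and 12.15, and in H/R+B12 at 11.97, 11.67, 12.04 and 11.68. H/R arrays were the lower ones with overlap, by -0.41 ± 0.18 without B12 (adjusted p = 0.132) and -0.29 ± 0.18 with it (adjusted p = 0.312). With an intensity trend and robust variances the value without B12 passed (adjusted p = 0.0473), and without control 3 it was -0.26. Rrn3, which holds an E-box pair upstream, was at 0.17 ± 0.16 and 0.32 ± 0.16. Polr1a was at 0.14 ± 0.21 and 0.27 ± 0.21. Polr1e was at -0.05 ± 0.22, a sign that turned when arrays were centred (0.021), and at 0.41 ± 0.22 with B12. The 95% intervals without B12 were -0.78 to -0.04 for Ubtf and -0.27 to 0.77 for Polr1b. They were -0.52 to 0.42 for Polr1e, -0.31 to 0.58 for Polr1a and -0.17 to 0.52 for Rrn3. Each interval holds the changes compatible with that gene's values, and only that of Ubtf lay wholly below no change. Ubtf did not pass after adjustment.

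The snoRNP proteins went both ways. Box C/D snoRNPs, which place methyl groups on ribosomal RNA, are represented by the core protein Nop58 and the methyltransferase Fbl. H/ACA snoRNPs, which make pseudouridine, are represented by the synthase Dkc1 and the small core protein Nop10. Nop58 read 13.30, 12.58, 12.80 and 12.54 in control against 13.82, 13.92, 14.00 and 13.61 in H/R. With B12 it was at 12.70, 12.28, 12.73 and 12.74 in control+B12 against 13.80, 13.72, 13.91 and 13.71 in H/R+B12. Every H/R array lay above every array kept in normal culture, and Nop58 rose by 1.03 ± 0.17 without B12 (2.05-fold, adjusted p = 0.000415) and by 1.17 ± 0.17 with it (adjusted p = 0.00013).

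Nop10 moved the other way. It read 15.59, 15.31, 15.60 and 15.27 in control and 14.35, 14.64, 14.51 and 14.56 in H/R. It read 15.51, 15.54, 15.34 and 15.56 in control+B12 and 14.52, 14.55, 14.52 and 14.55 in H/R+B12. All 8 H/R arrays lay below all 8 others. Nop10 fell by 0.93 ± 0.12 without B12 (0.526 of control, adjusted p = 5.82e-05) and by 0.95 ± 0.12 with it (adjusted p = 4.53e-05). Its partner Dkc1 varied between arrays and did not pass, at 0.34 ± 0.31 and 0.25 ± 0.31. Fbl was at 0.00 ± 0.16 and 0.16 ± 0.16, with a sign that turned under quantile normalization without B12 (-0.037). Nolc1, a nucleolar chaperone of snoRNPs, was at 0.51 ± 0.19 (adjusted p = 0.0809) without B12 and rose by 0.64 ± 0.19 with it (adjusted p = 0.0266). The value without B12 passed without control 1 (0.67, adjusted p = 0.0193), with centred arrays (adjusted p = 0.043) and with an intensity trend (adjusted p = 0.0255). The value with B12 missed the threshold in the fit of only those groups (adjusted p = 0.0518), without control+B12 3 (0.0794) or 4 (0.0517) and without H/R+B12 3 (0.0952).

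Ncl and Npm1 are abundant nucleolar phosphoproteins that bind ribosomal RNA and assembling particles. Npm1 read 15.71, 14.93, 15.82 and 15.13 in control and 15.66, 15.93, 16.16 and 15.32 in H/R. In control+B12 it was at 15.73, 15.31, 15.31 and 15.51, and in H/R+B12 at 16.03, 15.87, 15.71 and 15.33. The groups overlapped, with changes of 0.37 ± 0.23 (adjusted p = 0.335) and 0.27 ± 0.23 (adjusted p = 0.49).

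Ncl read 14.42, 13.86, 13.96 and 13.83 in control and 14.41, 14.36, 14.46 and 14.00 in H/R. It read 13.80, 13.91, 13.70 and 13.98 in control+B12 and 14.31, 14.37, 14.30 and 14.27 in H/R+B12. The array control 1 lay among the H/R arrays, and with B12 the groups did not overlap. The change without B12 was 0.29 ± 0.15 (adjusted p = 0.231), or 0.43 without control 1 (adjusted p = 0.0485), and with B12 Ncl rose by 0.46 ± 0.15 (adjusted p = 0.04). That call was lost when any array of its groups but control+B12 4 was left out (adjusted p from 0.0596 without control+B12 2 to 0.105 without control+B12 3).

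The small subunit processome, the large particle that forms on the front part of the precursor RNA and prepares the 40S subunit, had 8 of 11 genes higher and 0 lower in both comparisons, with medians of 0.64 and 0.83. In limma, 0 of the 11 fell, and 0 had an unadjusted p under 0.05 on the lower side. Wdr43, Utp4, Utp15, Heatr1 and Wdr75 belong to the module that binds the precursor first. Wdr43, with the highest change and an E-box just after its start, read 12.61, 11.39, 11.53 and 12.21 in control and 13.19, 13.13, 13.38 and 13.51 in H/R. It read 11.59, 11.97, 12.11 and 11.69 in control+B12 and 13.07, 13.18, 13.38 and 13.51 in H/R+B12. The groups did not overlap although control spread over more than 1 log2 unit, and Wdr43 rose by 1.36 ± 0.23 (2.57-fold, adjusted p = 0.000458) and by 1.45 ± 0.23 with B12 (adjusted p = 0.000277).

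Within the same module Utp15 rose by 1.02 ± 0.21 and 1.07 ± 0.21, and Utp4 by 0.81 ± 0.13 and 1.06 ± 0.13. Wdr75 did not pass, at 0.30 ± 0.15 (adjusted p = 0.203) and 0.31 ± 0.15 (adjusted p = 0.176). Heatr1 rose by 0.64 ± 0.16 without B12 and by 1.28 ± 0.16 with it, the widest gap between the comparisons among the 40 genes. Of the others, Nop14 rose by 0.85 ± 0.14 and 0.75 ± 0.14, and Utp18, with its E-box upstream, by 0.71 ± 0.12 and 0.98 ± 0.12.

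Noc4l, known as the partner of Nop14, had the lowest change of the processome genes. It read 9.93, 9.51, 9.64 and 9.40 in control against 9.54, 9.27, 9.81 and 9.54 in H/R, and 9.72, 9.60, 9.97 and 9.54 in control+B12 against 9.66, 9.84, 9.56 and 9.99 in H/R+B12. The groups overlapped throughout, at -0.08 ± 0.16 (adjusted p = 0.82) and 0.06 ± 0.16 (adjusted p = 0.871). Rrp9, a protein of the U3 snoRNP, did not pass either, at 0.38 ± 0.21 and 0.15 ± 0.21.

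Utp20 rose by 0.53 ± 0.15 (adjusted p = 0.0228) and the GTPase Bms1 by 0.42 ± 0.13 (adjusted p = 0.0336) without B12, and by 0.83 ± 0.15 and 0.75 ± 0.13 with it. The calls without B12 were close to the threshold. With 1 array left out at a time, the change of Utp20 ran from 0.45 to 0.70 and that of Bms1 from 0.34 to 0.47. Utp20 missed the threshold when control 2 (0.0791), 3 (0.0565) or 4 (0.0688) was left out, and when array 2 (0.0522) or 3 (0.0719) of H/R was. Bms1 missed it without any single array of its groups but H/R 4 (adjusted p from 0.0514 without control 2 to 0.114 without H/R 2). In the fit of only those groups the adjusted p-values were 0.091 and 0.0768.

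**Figure D2:**
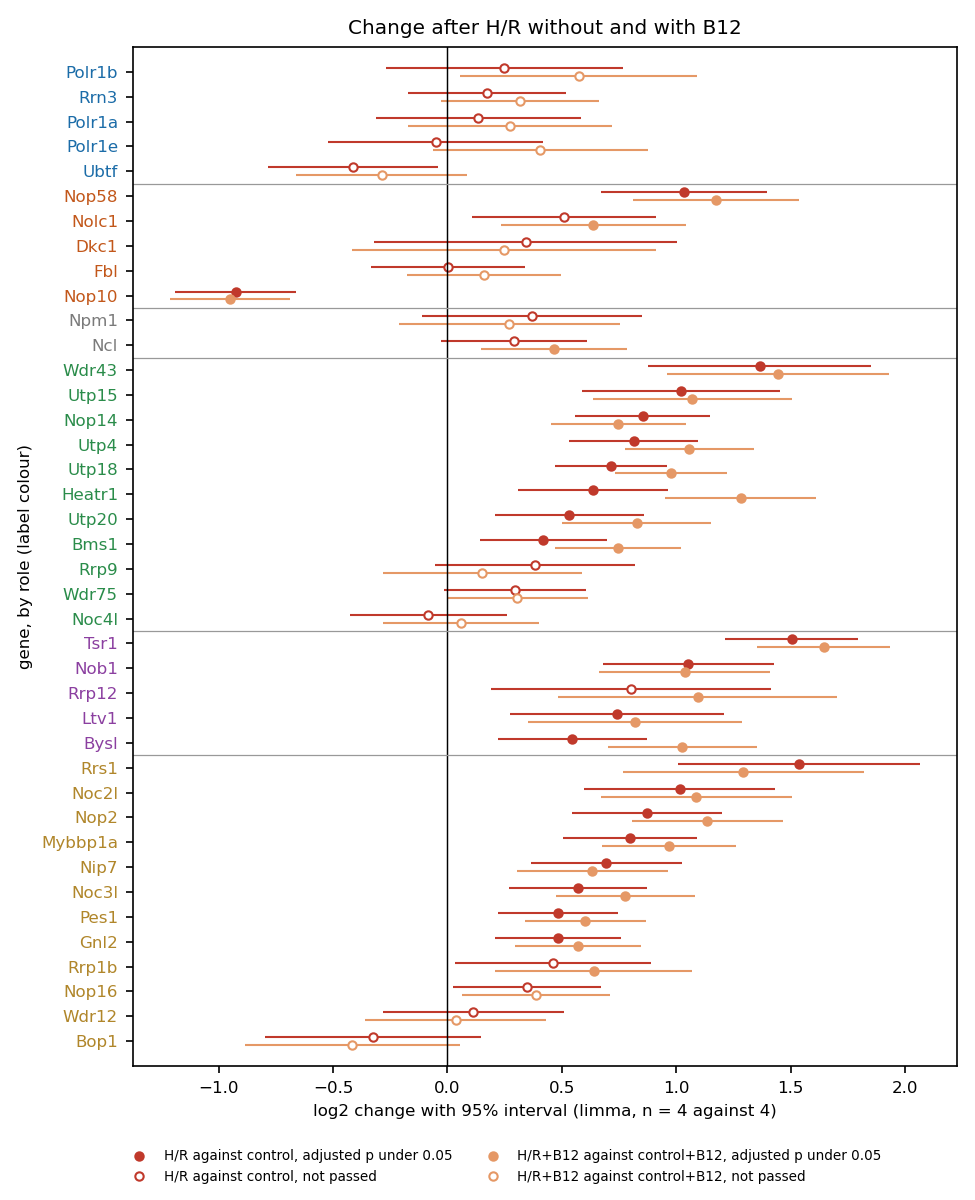
Log2 change of each gene (rows, by role) after H/R without B12 (red) and with B12 in both arms (orange), with 95% intervals from limma, n = 4 against 4, and filled points where the adjusted p was under 0.05. All points of the 5 RNA polymerase I genes are open, with intervals that include 0 except for Ubtf without B12 and Polr1b with it. The points of all 5 late 40S genes lie to the right of 0, while Nop10 is the only filled point on the left.

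The factors that act late on the 40S subunit, during its export and final trimming in the cytoplasm, rose in 4 of 5 cases without B12 and in 5 of 5 with it (medians 0.80 and 1.04). Tsr1, which blocks early entry of the new subunit into translation, read 9.67, 9.55, 9.14 and 9.33 in control and 10.81, 10.99, 10.88 and 11.04 in H/R. It read 9.38, 9.32, 9.65 and 9.32 in control+B12 and 11.11, 11.06, 11.11 and 10.96 in H/R+B12. The H/R arrays stood more than 1 log2 unit above all others. Tsr1 rose by 1.51 ± 0.14 (2.84-fold, adjusted p = 1.43e-06) and by 1.64 ± 0.14 with B12 (3.12-fold, adjusted p = 5.53e-07), which were the smallest adjusted p-values among the 40 genes.

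Nob1, the nuclease that makes the final cut of the small subunit RNA, rose by 1.05 ± 0.18 and 1.04 ± 0.18. Bysl, with the lowest change of the group without B12 (with B12 it was Ltv1), read 9.99, 9.77, 9.61 and 9.65 in control and 9.94, 10.31, 10.53 and 10.41 in H/R. It read 9.20, 9.18, 9.26 and 9.11 in control+B12 and 10.19, 9.96, 10.20 and 10.50 in H/R+B12. The control and H/R arrays overlapped by 1 array each, and all 4 control+B12 arrays lay below all 4 control arrays. Bysl rose by 0.55 ± 0.15 (adjusted p = 0.0199) and by 1.03 ± 0.15 with B12 (adjusted p = 0.000162). Its call without B12 was lost when control 3 (0.0601) or 4 (0.0541) or array 3 (0.0693) or 4 (0.0555) of H/R was left out and in the fit of only those groups (0.0574).

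Ltv1, an assembly factor of the pre-40S head, rose by 0.74 ± 0.22 (adjusted p = 0.0271) and 0.82 ± 0.22 (adjusted p = 0.0146). Without B12 it missed the threshold when control 3 (0.0984) or 4 (0.0709) or array 1 (0.0735), 2 (0.0723) or 3 (0.0544) of H/R was left out and in the fit of only those groups (0.0605). With B12 it missed it without control+B12 2 (0.0503) or H/R+B12 1 (0.0502). Rrp12, a factor of nuclear export of the subunits, was at 0.80 ± 0.29 without B12 (adjusted p = 0.0681) and rose by 1.09 ± 0.29 with it (adjusted p = 0.0127). The former passed without control 1 (0.99, adjusted p = 0.0319), with array weights (0.0498), after quantile normalization (0.0486), with an intensity trend (0.0207) and in the fit of only those groups (0.0241). The latter did not pass in the fit of only those groups (0.0501).

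**Figure D3:**
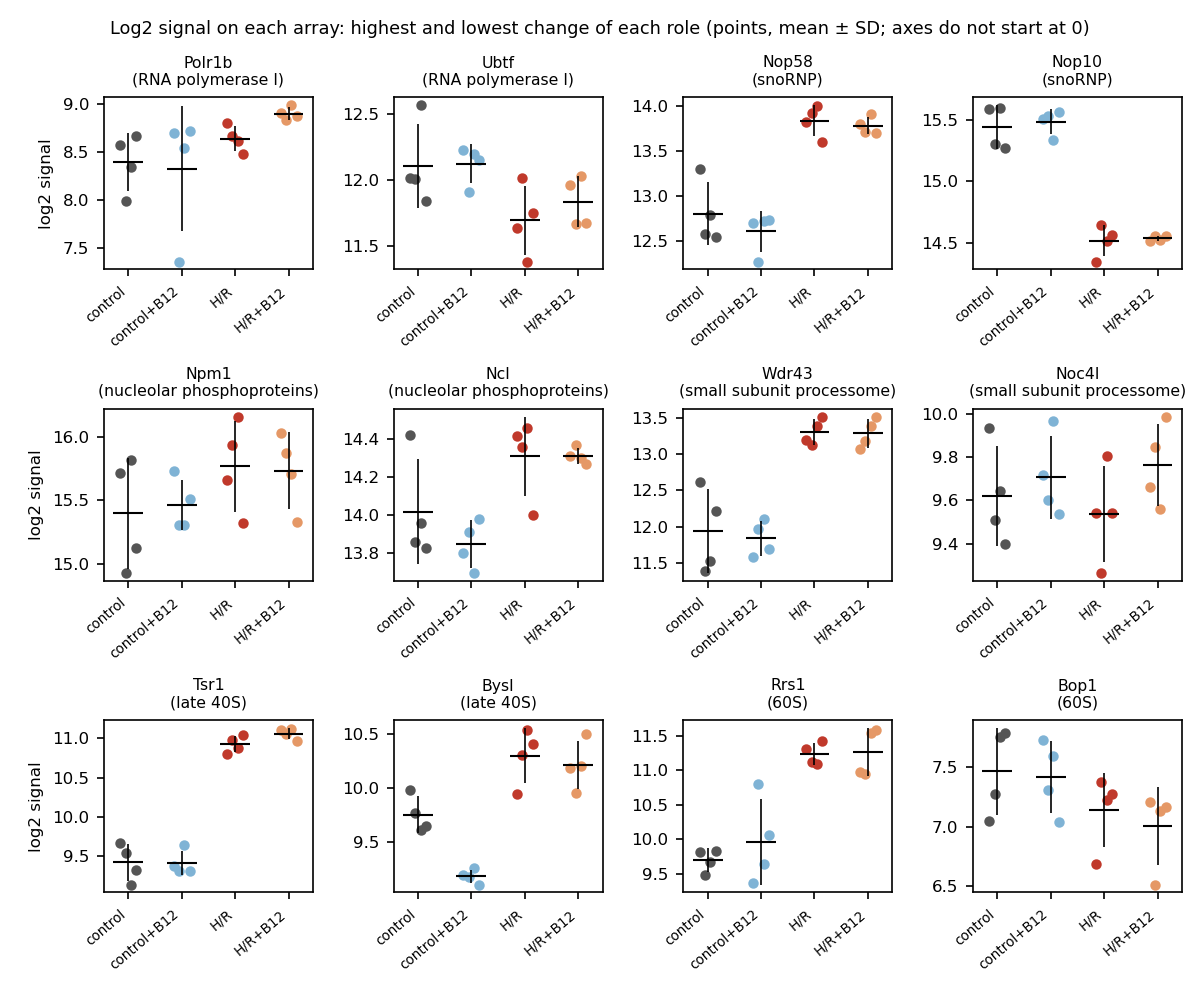
Log2 signal on every array (points, by group) with the group mean ± SD for the genes with the highest and the lowest change without B12 of each role; the axes do not start at 0. Nop58, Wdr43, Tsr1 and Rrs1 are higher and Nop10 is lower on all H/R arrays than on all arrays kept in normal culture, while Ubtf, Npm1, Noc4l and Bop1 overlap in both comparisons and Polr1b, Ncl and Bysl overlap without B12 but not with it.

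Among the 60S factors 8 of 12 rose without B12 and 9 of 12 with it, and 0 fell by limma in either (medians 0.53 and 0.64). On the lower side 0 of the 12 had an unadjusted p under 0.05. Rrs1, which helps to bring the 5S ribosomal RNA particle into the large subunit, read 9.82, 9.48, 9.67 and 9.84 in control and 11.31, 11.11, 11.09 and 11.43 in H/R. It read 9.37, 10.80, 9.64 and 10.06 in control+B12 and 10.98, 10.94, 11.54 and 11.58 in H/R+B12. The states did not overlap, although control+B12 2 came close to the lowest H/R+B12 array. Rrs1 rose by 1.54 ± 0.25 (2.9-fold, adjusted p = 0.000334) and by 1.29 ± 0.25 (adjusted p = 0.00135).

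Noc2l rose by 1.02 ± 0.20 and 1.09 ± 0.20, and Noc3l, which forms a pair with it on pre-60S particles, by 0.57 ± 0.14 and 0.78 ± 0.14. The methyltransferase Nop2 rose by 0.87 ± 0.15 and 1.14 ± 0.15, the nucleolar protein Mybbp1a by 0.80 ± 0.14 and 0.97 ± 0.14, and Nip7 by 0.69 ± 0.16 and 0.63 ± 0.16. Nop2 and Mybbp1a are among the genes with an E-box shown above. The GTPase Gnl2 rose by 0.48 ± 0.13 and 0.57 ± 0.13. Its call without B12 was lost without control 2 (adjusted p = 0.0538). Rrp1b was at 0.46 ± 0.20 (adjusted p = 0.143) and rose by 0.64 ± 0.20 with B12 (adjusted p = 0.036). The latter was lost without control+B12 1 (0.108), 2 (0.0559) or 4 (0.0633), without H/R+B12 1 (0.1) or 4 (0.122) and in the fit of only those groups (0.0759). Nop16 did not pass, at 0.35 ± 0.15 (adjusted p = 0.144) and 0.39 ± 0.15 (adjusted p = 0.0942), the latter passing with an intensity trend (0.0487).

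Pes1, Bop1 and Wdr12 form a complex needed for processing of the large subunit RNA, and their values differed. Pes1 rose by 0.48 ± 0.12 (adjusted p = 0.0111) and 0.60 ± 0.12 (adjusted p = 0.0023). The former was lost in the fit of only those groups (0.0508). Wdr12 was at 0.11 ± 0.19 and 0.04 ± 0.19. Bop1, with the lowest change of the 60S factors, read 7.05, 7.27, 7.76 and 7.78 in control and 6.68, 7.38, 7.23 and 7.27 in H/R. It read 7.73, 7.31, 7.60 and 7.04 in control+B12 and 7.21, 6.52, 7.13 and 7.17 in H/R+B12. The groups overlapped, at -0.33 ± 0.22 (adjusted p = 0.4) and -0.41 ± 0.22 (adjusted p = 0.239). The difference between these genes was not tested.

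Other genes of the pathway, from lists that hold none of the 42, gave the setting. These lists too were chosen with earlier results of these data known, so their counts are not independent support. Of 81 measured further assembly factors (84 listed) 39 rose and 2 fell without B12, and 40 rose and 1 fell with it, with medians of 0.51 and 0.55. Over all probe sets 8.11% were higher and 9.54% lower without B12, and 9.04% and 9.61% with it. Without B12 the smallest p-values were those of the 60S GTPase Gtpbp4 (1.46 ± 0.13), Sdad1 (1.15 ± 0.16), Nifk (0.89 ± 0.12) and the export adaptor Nmd3 (1.20 ± 0.17), each higher on all 4 H/R arrays than on all 4 control arrays. The genes that fell without B12 were the methyltransferase Bud23 (-0.55 ± 0.15) and Wdr18 (-0.54 ± 0.18), of which Bud23 also fell with B12 (-0.45 ± 0.15).

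The other subunits and factors of RNA polymerases I and III had 32 of 37 measured, with 5 higher and 3 lower without B12, 7 higher and 2 lower with it, and medians of 0.05 and 0.08. Over all probe sets 8.11% were higher and 9.54% lower without B12, and 9.04% and 9.61% with it. The lower counts of this list are near those shares. Polr1c, a subunit that polymerases I and III share, was at 0.52 ± 0.18 without B12 (adjusted p = 0.0579) and rose by 0.54 ± 0.18 with it (adjusted p = 0.048). Polr1d came close to the threshold without passing, at 0.38 ± 0.13 (adjusted p = 0.0613) and 0.39 ± 0.13 with B12 (adjusted p = 0.0512). Without B12 the smallest p-values were those of Polr3d, Polr2f, Bdp1 and Polr3k. The polymerase III subunit Polr3d rose by 0.93 ± 0.17 and the initiation factor Bdp1 by 0.67 ± 0.14. The subunit Polr2f, which all nuclear polymerases share, was at -0.68 ± 0.13 and the polymerase III subunit Polr3k at -0.87 ± 0.19, both lower. Polr2f was lower with B12 too (-0.38 ± 0.13, adjusted p = 0.0445). The shared subunit Polr2l fell by 0.76 ± 0.20 without B12 (adjusted p = 0.0138) and was at -0.46 ± 0.20 with it (adjusted p = 0.142). Polr2h, also shared, was at 0.44 ± 0.17 without B12 (adjusted p = 0.0944) and rose by 0.73 ± 0.17 with it (adjusted p = 0.00627). Of 13 genes of the RNA exosome, the nuclease complex that trims ribosomal RNA, 1 rose and 3 fell without B12, and 3 rose and 1 fell with it. Counts of 1 in 13 are near the same shares of all probe sets. Exosc5, at -1.27 ± 0.23 and -1.22 ± 0.23, fell in both, and its mean in the H/R groups came near the negative controls. Exosc9 was at -0.70 ± 0.12 without B12 and 0.04 ± 0.12 with it (interaction 0.74 ± 0.17, adjusted p = 0.803), and Exosc7 at -0.72 ± 0.22 and -0.47 ± 0.22. The cofactor Mphosph6 rose in both, by 0.97 ± 0.17 and 0.57 ± 0.17.

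Ribosomal protein genes encode the proteins that the assembly factors put in place. Of 56 measured (79 listed), 0 passed in either comparison by limma, beside 17.6% and 18.7% of all probe sets. At an unadjusted p under 0.05 there were 1 and 2, beside 27.6% and 29.1%. The changes of the 56 ran from -0.31 to 0.28 without B12 and from -0.21 to 0.54 with it, with medians of 0.03 and 0.02. The smallest p-values without B12 were those of Rpl14 (-0.31 ± 0.14), Rpsa (-0.27 ± 0.14), Rpl37 (0.24 ± 0.15) and Rps16 (0.28 ± 0.17). Of the list of snoRNA host genes and related RNAs only Rmrp, the RNA of a nuclease that cuts the precursor, had a named probe set, at 0.41 ± 0.14 (adjusted p = 0.0525) and 0.30 ± 0.14 (adjusted p = 0.169).

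**Figure D4:**
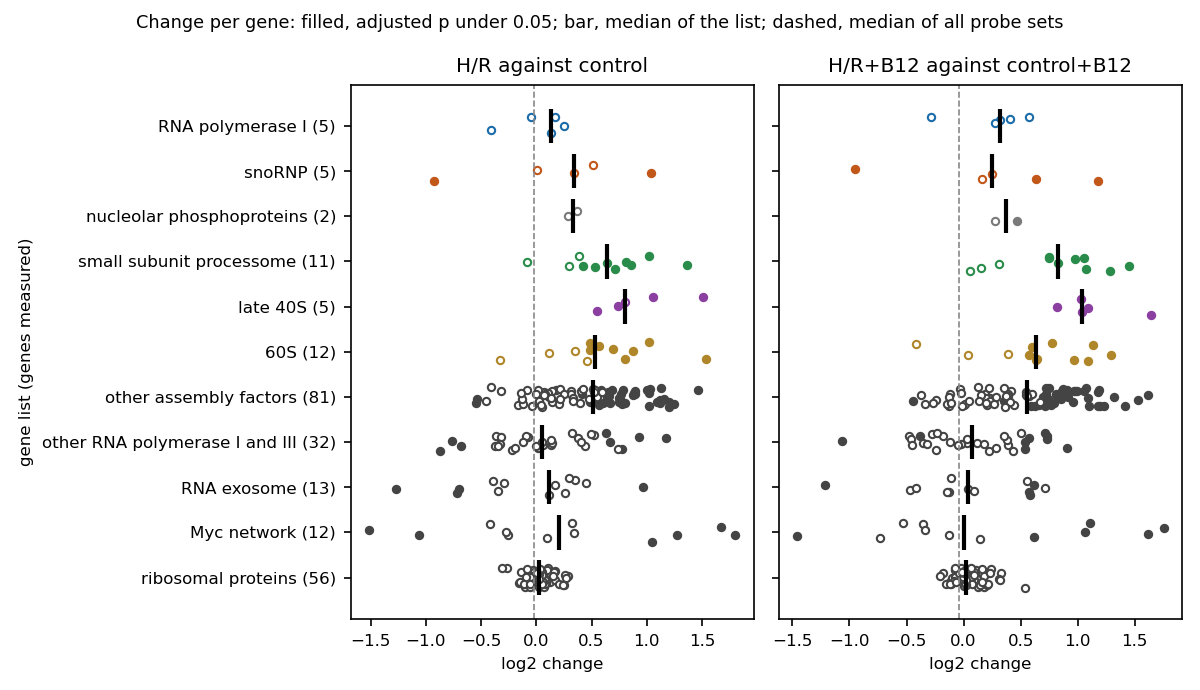
Log2 change of each gene (points) after H/R without B12 (left) and with B12 in both arms (right), by role of the 40 genes (coloured) and by related list (grey), filled where the adjusted p was under 0.05, with the list median as a bar and the median of all probe sets as a dashed line. The medians of the processome, late 40S, 60S and further assembly factor rows lie between 0.51 and 1.04, and that of the 56 ribosomal protein genes lies at 0.03 and 0.02.

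Myc, a well-known activator of ribosome biogenesis genes, did not pass itself, at -0.26 ± 0.13 (adjusted p = 0.219) without B12 and -0.35 ± 0.13 (adjusted p = 0.0736) with it. Its partner Max was at 0.32 ± 0.15 (adjusted p = 0.189) and rose by 0.62 ± 0.15 with B12 (adjusted p = 0.00816). The 3 genes of factors that compete with Myc for Max and rose in both comparisons were Mnt (1.80 ± 0.21 and 1.61 ± 0.21), Mxd1 (1.67 ± 0.23 and 1.75 ± 0.23) and Mxi1 (1.28 ± 0.13 and 1.06 ± 0.13). Mxd4, of the same family, was lower in both, at -1.51 ± 0.24 and -1.46 ± 0.24, and Mlxip, a sugar-sensing relative, rose by 1.04 ± 0.14 and 1.11 ± 0.14. Mxd3 passed without B12 (-1.06 ± 0.30, adjusted p = 0.019) and not with it (-0.73 ± 0.30, adjusted p = 0.104), and its interaction did not pass (0.33 ± 0.42, adjusted p = 0.987). Mxd3 and Mycl (0.10 ± 0.41) lay below the negative control medians in all groups, so their sizes are uncertain. Mycn (-0.42 ± 0.25), Mga (0.34 ± 0.16) and Mlx (-0.28 ± 0.13) did not pass.

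None of the 40 genes passed the test for B12. Comparing H/R+B12 with H/R, 0 of 40 passed by limma, as did 0% of all probe sets, and 1 of the 40 (Bms1) had an unadjusted p under 0.05, beside 4.55% of all probe sets. All 4 H/R+B12 arrays lay above all 4 H/R arrays in 1 gene, Polr1b (1.38% of all probe sets), and below in 0 (1.49%). Comparing control+B12 with control, 0 of 40 passed (0% of all probe sets) and 4 had an unadjusted p under 0.05, beside 5.76%. These were Heatr1, Bysl, Utp18 and Utp20, all lower with B12, at -0.58 ± 0.16, -0.57 ± 0.15, -0.32 ± 0.12 and -0.40 ± 0.15, with the smallest adjusted p of 0.762. All 4 control+B12 arrays lay below all 4 control arrays in these 4 genes and Pes1 (1.51% of all probe sets), and above in 0 (1.36%). The interaction, the H/R change with B12 minus that without, passed in 0 of 40 (0% of all probe sets), and 2 (Heatr1 and Bysl) had an unadjusted p under 0.05, beside 4.82%. With array weights in limma the count passing was also 0 in these 3 comparisons.

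Heatr1, singled out after its values were seen, read 10.57, 11.16, 10.63 and 10.95 in control and 10.47, 10.27, 10.03 and 10.22 in control+B12. It read 11.68, 11.57, 11.24 and 11.36 in H/R and 11.50, 11.48, 11.51 and 11.63 in H/R+B12. The B12 arrays lay lower in normal culture, where the groups did not overlap, and among the others after H/R. Its interaction was 0.64 ± 0.22 (95% interval 0.18 to 1.11, adjusted p = 0.972). That of Bysl was 0.48 ± 0.22 (adjusted p = 0.987). The interaction was above 0 in 30 of the 40 genes and in 50.8% of all probe sets, with a median of 0.13 beside 0.01. Its terms use the same arrays as both H/R comparisons, so it is not a separate observation.

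**Figure D5:**
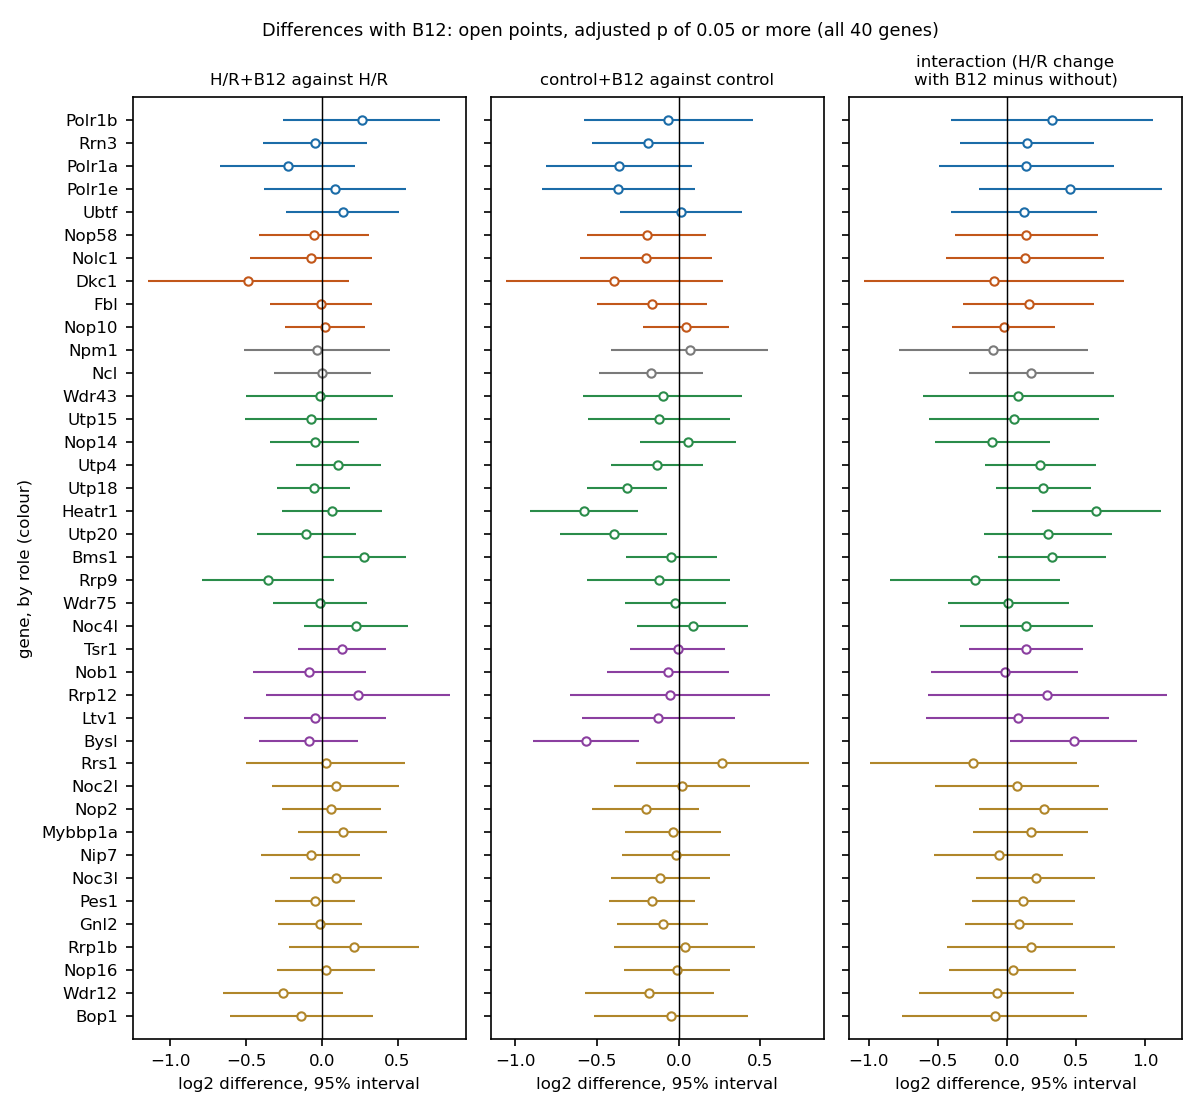
Log2 difference of each gene (rows, coloured by role) between H/R+B12 and H/R (left), between control+B12 and control (middle) and the interaction (right), with 95% intervals from limma. All points are open because 0 of 40 genes passed, and the points of Heatr1 and Bysl lie farthest from 0 in the middle panel.

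The order of the 40 genes by change can be compared without and with B12, since those comparisons share no arrays. Across the 40, Pearson's r between the changes was 0.94 and Spearman's rho 0.92, beside 0.75 and 0.60 across all probe sets. This describes genes on the same arrays, which are not independent replicates. The mean signal of a gene and its change without B12 had an r of -0.04 and a rho of 0.04 across the 40. On the mean over the 40 genes, the H/R arrays lay between 11.44 and 11.50 and the H/R+B12 arrays between 11.45 and 11.47. The control arrays lay between 10.84 and 11.18 and the control+B12 arrays between 10.74 and 10.88. Without control 1, the control arrays lay between 10.84 and 10.91.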

How the data were processed

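RNA of 16 samples was hybridised to arrays after biotin labelling, from 700 pg of RNA each per the labels' protocols. The deposited table holds log2 signal per probe set, which the authors computed by RMA (robust multi-array average). The submitters' processing notes name Affymetrix Expression Console and Transcriptome Analysis Console, without versions. The values reach 19.46, and whether a signal transformation preceded RMA is not given either, which affects the size of log2 changes. Of 28846 features, 6640 control features (5222 of them negative controls) were left out and 22206 probe sets tested, 19572 with 1 gene symbol from the platform table and 2634 with none. Each of the 40 measured genes had 1 probe set. Samples were grouped by their titles, since some free-text descriptions of the B12 samples number the vitamin differently.

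All 16 arrays were fitted with limma 3.58.1 in R 4.3.3 as 4 group means with empirical Bayes variances, two-sided, with Benjamini-Hochberg adjustment over 22206 probe sets in each of 5 comparisons and a threshold of 0.05. The fit was checked on simulated data. Every adjusted p in the text is from limma. Precision is limited by having 4 arrays in a group. E-boxes were searched with Python 3.11.15. The members and gene lists were chosen with earlier results of these data known. Genes given array by array are those with the highest and lowest H/R change without B12 of each of 6 roles. Each related list is shown by up to 4 genes of smallest p, beside genes behind small counts and Polr1d, which were named after their values were seen. Start regions were to be printed where an E-box lay upstream, and stretches around those after the start were added after seeing them. The alternatives were a replicate block, fits of 2 groups, quantile normalization, centring of arrays, averaging of probe sets, a filter on the dimmest 25%, weights per array, a variance trend on intensity (robust), and omission of each array. The background correction cannot be redone from RMA values.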

Additional observations from a re-analysis of the deposited data

Results flagged for a closer look

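On single arrays, 6 values stood apart from the other 3 arrays of their group by Dixon's test at 95%, out of 164 sets of 4 values looked at (the 40 genes and their mean, in 4 groups). Chance alone picks out about 1 in 20. Polr1b was low in control+B12 2, at 7.36 against 8.54 to 8.72 in the others, and so was Nop58 on the same array, at 12.28 against 12.70 to 12.74. Nolc1 was high in H/R+B12 3, at 11.92 against 11.18 to 11.25. Utp18 was low in H/R 2, at 11.82 against 11.99 to 12.01. Rrp9 was high in control+B12 1, at 7.49 against 6.80 to 6.83. Bop1 was low in H/R+B12 2, at 6.52 against 7.13 to 7.21. No gene of the 40 passed the interaction test.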

How the results depend on the processing

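Of the genes called without B12, 16 of 22 were called in all 16 alternatives run, and with B12 21 of 26. One of these, averaging of probe sets, left the values of the 40 genes unchanged, since each had 1 probe set. It could alter their calls only through the other probe sets. The count of the 40 genes called ranged from 18 to 25 (22) and from 23 to 27 (26) over the alternatives, and the counts with each array left out ran from 18 to 24 and from 23 to 25. In the other 3 comparisons it stayed at 0 in every alternative. Over all probe sets, leaving out 1 array at a time gave counts from 0 to 1 for H/R+B12 against H/R and from 0 to 1 for control+B12 against control. All sign changes were in genes not called. For H/R against control, the Polr1e log2 change turned to 0.021 with arrays centred on medians and ran from -0.17 to 0.12 with each array left out. The Fbl log2 change turned to -0.037 under quantile normalization and ran from -0.049 to 0.083, that of Noc4l from -0.17 to 0.021 and that of Wdr12 from -0.0090 to 0.27. For H/R+B12 against control+B12, Noc4l ran from -0.017 to 0.14 and Wdr12 from -0.063 to 0.17. The cause was not tested. Deviations of same-numbered arrays correlated at -0.07 to 0.08 over 24 pairs, so the numbers were not taken as a pairing. With the replicate number as a block 22 and 24 of the 40 genes were called. The block ended the calls of Ncl (adjusted p = 0.0551) and Rrp1b (adjusted p = 0.051) with B12 and no other. The background correction and a scan date or slide block were not run, since the processed values do not hold them.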
